A study of Homo sapiens with 72 samples.

Results

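The genes for 9 cytokine and growth factor receptors, IL7R, FLT3, KIT, IL2RA, IL2RG, IL4R, IL10RA, IL21R and IFNGR1, were followed through Cut&Tag peaks of 3 histone marks in 3 B cell lines. They were taken by name as a list and located with GENCODE 44 on hg38, as 9 of 20033 protein-coding genes of chromosomes 1 to 22, X and Y. On the plus strand lie IL7R (chr5:35852695-35879603), KIT (chr4:54657267-54740783), IL10RA (chr11:117986370-118003037) and, close together on chr16, IL4R (chr16:27313668-27364778) and IL21R (chr16:27402174-27452042). On the minus strand lie FLT3 (chr13:28003274-28100592), IL2RA (chr10:6010689-6062370), IL2RG (chrX:71107404-71112108) and IFNGR1 (chr6:137197483-137219449). Cut&Tag uses an antibody to place a transposase on chromatin, so that the sequenced fragments mark where a histone modification lies. The study profiled H3K4me2, H3K4me3 and H3K27me3 in the Burkitt lymphoma line Raji and in NALM6 and REH, lines of B cell acute lymphoblastic leukemia. The library labels name H3K27me3, while the series description and the text of the study name H3K27me2 in places, so the methyl state read by that antibody rests on the labels. Cells were left untreated or were given bryostatin, a macrolactone that activates protein kinase C, at 1 nM, for a full day by the text of the study. Each of the 18 groups of line, mark and treatment had 3 replicate libraries, 54 in all. The lines carry no engineered allele in the labels. The labels do not say whether replicates came from separate cultures, so the p-values measure the spread between these libraries only.

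Receptors of the cytokine receptor families listed here have no enzymatic activity of their own and signal through JAK kinases and STAT factors bound to their chains. FLT3 and KIT instead are receptor tyrosine kinases of early blood progenitors. IL2RG is the common gamma chain shared by the receptors for IL-2, IL-4, IL-7 and IL-21, whose private chains are encoded by IL2RA, IL4R, IL7R and IL21R. IL10RA encodes the ligand-binding chain of the IL-10 receptor and IFNGR1 that of the interferon gamma receptor. H3K4me3 marks active starts, H3K4me2 marks starts and regulatory elements more broadly, and H3K27me3 is laid down by Polycomb repressive complex PRC2.

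The sequence just before the start is shown for some of the members on which the line and bryostatin results turn, since CG-rich starts are known to carry H3K4 methylation more often than CG-poor ones. Each run is the 250 bases before the start on the gene's strand, 5′ to 3′, with CG dinucleotides in capitals.
KIT, chr4:54657707-54657956, plus strand, H3K4me2 and H3K27me3 in REH: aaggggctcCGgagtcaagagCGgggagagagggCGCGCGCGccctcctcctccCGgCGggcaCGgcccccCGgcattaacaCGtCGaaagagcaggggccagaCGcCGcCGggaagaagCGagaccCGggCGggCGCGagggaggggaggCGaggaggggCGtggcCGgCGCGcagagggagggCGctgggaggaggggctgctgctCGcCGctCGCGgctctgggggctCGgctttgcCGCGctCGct
FLT3, chr13:28100577-28100826, minus strand, H3K4me2 and H3K4me3 in REH: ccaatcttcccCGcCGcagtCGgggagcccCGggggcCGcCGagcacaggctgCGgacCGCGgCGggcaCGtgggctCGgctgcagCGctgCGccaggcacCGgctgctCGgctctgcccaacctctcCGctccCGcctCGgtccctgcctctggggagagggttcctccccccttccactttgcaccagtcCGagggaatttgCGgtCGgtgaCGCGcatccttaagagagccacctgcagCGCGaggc
IL21R internal start, chr16:27427021-27427270, plus strand, in intron 1 of the canonical transcript: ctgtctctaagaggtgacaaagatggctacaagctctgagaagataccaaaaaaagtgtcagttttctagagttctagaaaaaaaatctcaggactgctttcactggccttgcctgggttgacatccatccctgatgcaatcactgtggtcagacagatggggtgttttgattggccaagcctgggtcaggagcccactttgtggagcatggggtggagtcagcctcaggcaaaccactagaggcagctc
IL2RA, chr10:6062368-6062617, minus strand, called mainly in bryostatin-treated Raji: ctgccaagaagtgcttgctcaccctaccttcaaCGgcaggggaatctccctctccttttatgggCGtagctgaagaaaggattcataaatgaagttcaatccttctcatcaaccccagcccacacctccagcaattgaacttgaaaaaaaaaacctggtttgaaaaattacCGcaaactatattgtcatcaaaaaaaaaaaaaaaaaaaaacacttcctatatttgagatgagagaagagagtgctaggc
The sequences of KIT, FLT3, IL2RA and the internal start of IL21R stand in the RefSeq promoter table of GRCh38.p14, which held all 9 genes and gave the canonical start for 7 of them. In the windows of these 7, IL4R, KIT, FLT3 and IFNGR1 had 35, 34, 26 and 19 CG dinucleotides. IL2RA, IL2RG and IL7R had 3, 3 and 0, against a median of 11 over 35116 RefSeq promoters. Of the motifs searched on both strands, TGANTCA (AP-1) and CCGGAAGT (ETS) matched in none of the 7 canonical windows, and in 6.57% and 3.42% of all promoters. The RefSeq window of IL10RA, whose start lies 3551 bp after the canonical one, had 1 AP-1 match. CANNTG (E-box) matched 2 times in FLT3 and 1 time in IL2RA, and in 61.8% of all promoters. TATAAA matched 2 times in IL7R and 1 time in IL2RG, and in 10.7% of all promoters. These matches are descriptions of letters only.

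The files hold peaks called in each library with their total signal, the summed coverage over the peak. The start level of a gene is the total signal of all peaks within 1 kb of any of its annotated starts, in multiples of the median of reference genes in the same library. Reference genes had a start peak in all 18 libraries of the mark, 3573 genes for H3K4me2 and 4361 for H3K4me3. For H3K27me3 they had one in all 6 libraries of the line, 249 genes in Raji, 134 in NALM6 and 1858 in REH. A level of 0 means that no peak was called, not that the mark was absent. Whether fewer cells carried a mark or each cell carried less of it cannot be told apart in these bulk libraries. The lines differ in DNA copy number, which the signal also carries. Copy number was not measured here, so differences between lines are differences in signal. Depth could be read for 48 libraries and ranged from 5.12 to 47.9 M mapped reads, with a median of 18.8 M. The 6 libraries of NALM6 replicate 1 have another scaling and shorter peaks. In Raji H3K4me2 every treated library, 15.6 to 18.8 M reads, was deeper than every untreated one, 6.70 to 13.9 M. The smallest called H3K4me2 peak corresponded to levels of 0.049 to 0.285 in Raji, 0.0970 to 0.307 in REH and 0.211 to 0.359 in NALM6. The NALM6 bryostatin H3K4me3 replicate 3 had the fewest H3K4me3 peaks, 4389, and its smallest peak was at a level of 0.544. The Raji untreated H3K27me3 replicate 2 stood apart, with a peak at 88.7% of the starts that carried H3K4me3, against 0.404% to 14.2% in the other 5 Raji H3K27me3 libraries.

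The line labels were checked with marker genes, by a start peak in all 3 untreated libraries. Of 6 B lineage genes, H3K4me3 was called at 6 in Raji, 5 in REH and 4 in NALM6. Of 6 precursor B genes such as IGLL1 and DNTT it was called at 2 in Raji and at 5 in both NALM6 and REH. None of 4 T cell, 4 myeloid and 2 erythroid genes had H3K4me3 in any untreated library.

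The receptor genes differed between the lines in which of them were marked at all. IL10RA was marked at its start in Raji and in neither leukemia line, FLT3 and KIT had H3K4me2 in all 3 untreated libraries of REH and in none of Raji or NALM6, and IL4R and IFNGR1 were marked in every line. IL21R had H3K4me2 in all 3 lines but H3K4me3 in Raji alone. In the untreated libraries, H3K4me2 was called in 3 of 3 at the starts of 6 members in REH, where 54.2% of all genes had it. The counts were 4 in Raji, against 44.4% of all genes, and 1 in NALM6, against 25.5%. For H3K4me3 the counts were 2 in REH, 5 in Raji and 2 in NALM6, against 42.2%, 51.9% and 32.4% of all genes.

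Among the receptor tyrosine kinases, FLT3 had H3K4me2 levels of 0.848, 0.808 and 0.730 and H3K4me3 levels of 0.759, 0.707 and 0.883 in untreated REH. The merged H3K4me2 region in REH ran from -1994 to 3115 bp around the canonical start of FLT3. No untreated Raji or NALM6 library had either mark there. KIT had H3K4me2 levels of 1.23, 1.05 and 1.07 in untreated REH, but H3K4me3 in only 1 of the 3 libraries, at 0.148. KIT also had H3K27me3 over the same start in all 3 untreated REH libraries, at 0.608, 0.872 and 1.29 times the median reference gene of that mark. The H3K27me3 region of KIT, from -1776 to 3703 bp around the start, enclosed the H3K4me2 region, from -786 to 2953 bp. Both marks were called in 3 of 3 untreated REH libraries at 4.1% of all genes, and at KIT and IL4R among the 9. An H3K4me2 start peak in 3 of 3 untreated REH and 0 of 3 untreated Raji libraries was found at 6.6% of all genes, and at FLT3 and KIT among the 9. Against NALM6 it was found at 7.99% of all genes and at the same 2 members. The H3K4me3 form of that pattern was found at 2.59% of all genes, and at FLT3 among the 9, and against NALM6 at 1.58%. H3K27me3 in 3 of 3 untreated REH libraries and in none of Raji was found at 1.64% of all genes, and in none of NALM6 at 4.42%, with KIT the 1 member in both.

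**Figure D1:**
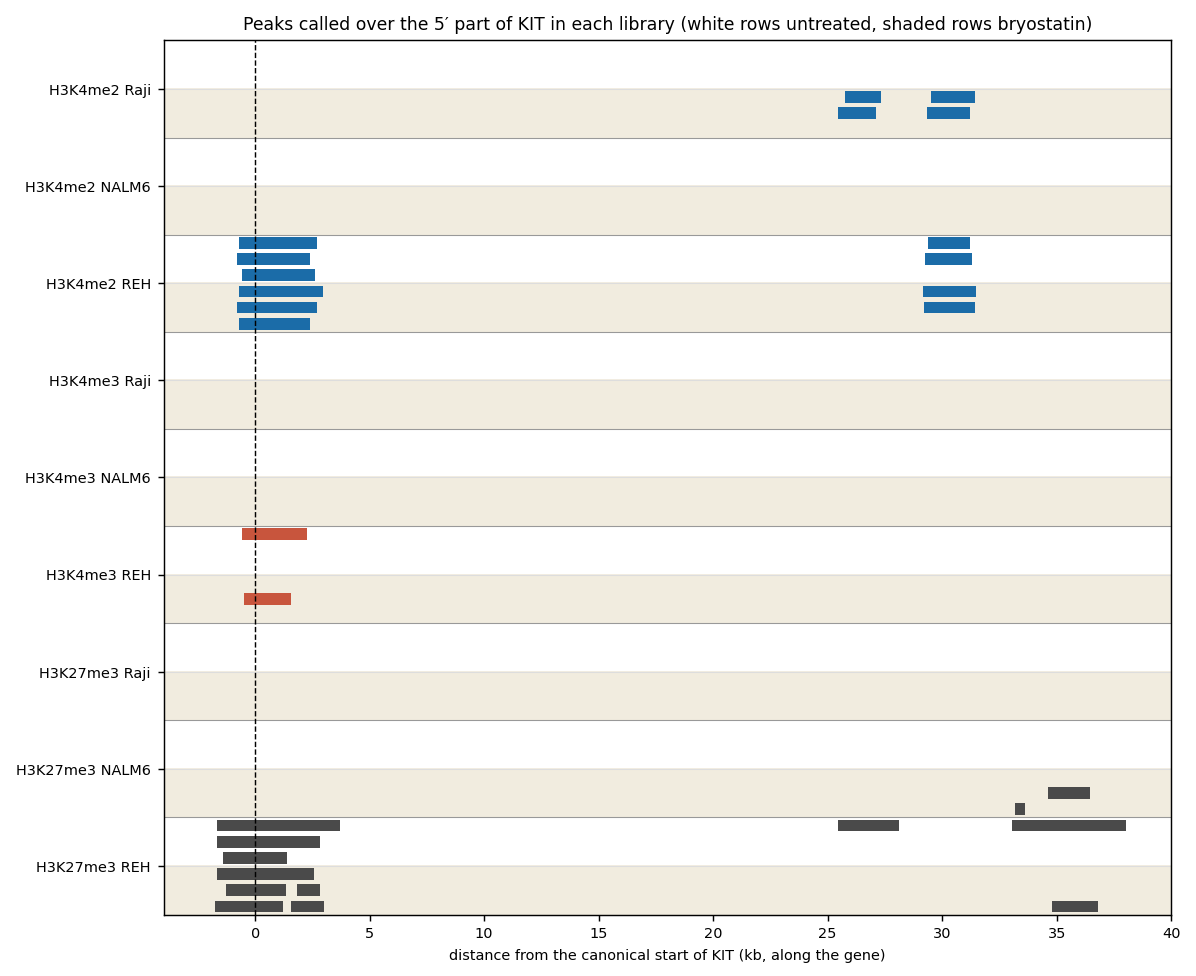
Peaks over the first part of KIT, with distance from the canonical start in kb on the horizontal axis and 1 row per library, grouped by mark and line, 3 untreated rows (white) above 3 bryostatin rows (shaded). Bars are called peaks. In REH, H3K4me2 and H3K27me3 cover the start in all 6 libraries, and H3K4me3 does in 2.

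Of the gamma chain family, IL21R had the highest mean level of the 9 genes in Raji for both marks. In REH its H3K4me2 was the lowest of the 6 members called in 3 of 3 untreated libraries, and in NALM6 it lay below IL4R. Its H3K4me2 levels were 3.53, 3.51 and 3.64 in untreated Raji, where 98.9% to 99.3% of all genes were lower. They were 0.318, 0.256 and 0.262 in REH and 0, 0.391 and 0.389 in NALM6, so the Raji libraries stood clear of both. The difference between Raji and REH was 3.61 on the log2 scale (SE 0.12, adjusted p = 8.2e-07, limma). Of all genes tested in this comparison 39.1% were called. The called length was 8720, 8190 and 11520 bp in Raji and 3070, 2360 and 1380 bp in REH. The difference was 2.24 for the signal clipped to the window (adjusted p = 9.81e-07), 1.06 for the mean signal per called base (adjusted p = 0.00157) and 0.97 for the maximum (adjusted p = 0.000324), so it stayed past the threshold but was smaller on each of these scales. Against NALM6, where IL21R had no peak in replicate 1, the difference was 3.10 (SE 0.13, adjusted p = 0.000131, limma) without that replicate, where 24.9% of all genes were called. H3K4me3 at IL21R was 1.03, 1.20 and 0.979 in untreated Raji and was called in no library of the other lines. In Raji the H3K4me2 of IL21R formed 1 region over the canonical start and another from 23227 to 29776 bp downstream, which holds the internal start. The Raji and REH levels of IL21R did not overlap, as was so for 53.1% of all genes tested. NALM6 exceeded REH at IL21R by 0.54 without NALM6 replicate 1 (SE 0.14, adjusted p = 0.025, limma), where 23.5% of all genes were called.

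IL4R was marked by H3K4me2 in every library. Its untreated Raji libraries were at 1.31, 1.62 and 1.37. Those of NALM6 were at 0.639, 0.575 and 0.556 and those of REH at 0.473, 0.424 and 0.490, with no overlap between lines. Among all genes tested, 37.4% did not overlap between Raji and NALM6 and 35.2% between NALM6 and REH. Raji exceeded REH by 1.56 (SE 0.13, adjusted p = 3.5e-05, limma) and NALM6 by 1.23 (SE 0.19, adjusted p = 0.00555, limma), where 13.3% of all genes were called. NALM6 exceeded REH by 0.38 (SE 0.13, adjusted p = 0.153, limma), where 8.19% were called. The IL4R peak was also broader in Raji. The called length was 3390, 3430 and 4950 bp in untreated Raji and 1530, 1650 and 1490 bp in REH, and the mean signal per called base differed by -0.18 on the log2 scale (SE 0.16, adjusted p = 0.434, limma). The start region of IL4R also holds that of the gene ENSG00000274092. Downstream of the gene, a further H3K4me2 region from 53047 to 54936 bp was called in all 6 Raji libraries and in 1 untreated library each of NALM6 and REH. H3K4me3 at IL4R was at 0.540, 0.833 and 0.903 in Raji and 0.527, 0.309 and 0.337 in NALM6, a difference of 0.91 (SE 0.30, adjusted p = 0.0799, limma), which was 1.13 and called without NALM6 replicate 1 (adjusted p = 0.0034), where the share of all genes called was 42.5%, against 17.4% with it. In REH it was called in 1 of 3 untreated libraries.

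IL2RG, the shared chain, had H3K4me2 at 0.736, 0.735 and 0.698 in untreated REH, 0.321, 0 and 0.566 in Raji and 0, 0 and 0.375 in NALM6. Its H3K4me3 was called in 3 of 3 untreated libraries only in Raji, at 0.152, 0.222 and 0.185. The start region of IL2RG also holds the start of the gene ENSG00000285171, so their signals cannot be told apart. Downstream, a separate H3K4me2 region from 5497 to 8966 bp, which holds the start of CXorf65, was called in all 6 REH libraries. IL7R was sparsely marked. Over its body with 3 kb flanks, H3K4me2 was called in all 6 REH libraries, at 0.520, 0.250 and 0.178 times the median body reference gene in the untreated ones, and in 2 of 3 Raji and 1 of 3 NALM6 untreated libraries. H3K4me3 over the same span was called in 3 untreated REH libraries, at 0.537, 0.281 and 0.187, and in 2 treated ones. It was also called in 2 untreated and 2 treated Raji libraries and in 2 untreated and 0 treated NALM6 libraries. IL2RA had no H3K4me2 at its start in any untreated library. In untreated Raji its H3K4me2 lay in intron 1, in a region from 10857 to 14286 bp after the start with levels of 0.691, 0.629 and 0.848.

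IL10RA had H3K4me2 at 1.97, 1.71 and 1.56 and H3K4me3 at 0.366, 0.494 and 0.413 in untreated Raji and was called in no NALM6 or REH library of either mark. That pattern against REH was found at 1.43% of all genes for H3K4me2 and 2.17% for H3K4me3, and against NALM6 at 4.49% and 2.89%. For H3K4me3 the members with it were IL10RA and IL21R. IFNGR1 had H3K4me2 at 1.30, 0.638 and 0.867 in Raji and at 0.727, 0.687 and 0.777 in REH, and these overlapped (difference 0.23, SE 0.23, adjusted p = 0.46, limma). Its H3K4me3 did not overlap between lines, at 1.02, 0.788 and 0.720 in Raji, 0.500, 0.452 and 0.439 in REH and 0.249, 0.388 and 0.382 in NALM6. Raji exceeded REH by 0.86 (SE 0.14, adjusted p = 0.00139, limma), where 47.2% of all genes were called and 58.9% did not overlap. It exceeded NALM6 by 1.27 (SE 0.22, adjusted p = 0.00799, limma), where 17.4% were called and 45.6% did not overlap. NALM6 differed from REH by -0.42 (SE 0.17, adjusted p = 0.214, limma), where 6.15% were called and 40.4% did not overlap. The call against NALM6 was lost when the fit was blocked on replicate number (adjusted p = 0.0501), and neither call held for the mean signal per base, with differences of 0.17 and 0.27. Over gene bodies with flanks the called members were the same in number, 2, 1 and 0 for H3K4me2 and 1, 1 and 0 for H3K4me3 in Raji against REH, Raji against NALM6 and NALM6 against REH. Of all genes 43.1%, 18.8% and 9.59% were called there for H3K4me2 and 47%, 18.3% and 6.9% for H3K4me3. In order of H3K4me3 start level in Raji, IL21R overlapped IFNGR1, IFNGR1 overlapped IL4R, and IL10RA and then IL2RG followed without overlap.

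With bryostatin, no receptor gene passed the test across all genes, and most start levels overlapped between treated and untreated libraries. The members whose treated and untreated levels did not overlap all had higher summed signal in the treated libraries. These were IL21R, IL2RG and IL2RA in Raji, IFNGR1 and IL2RG in REH and IL4R in NALM6. Groups did not overlap at 9.37% to 15.8% of all genes with a peak in all 6 libraries, over the lines and marks with a member tested. How many of those genes were higher was not counted. Of 30 combinations of gene, line and mark called in some but not all 6 libraries, 2 did not overlap. These were IL2RA H3K4me3 and IL2RG H3K4me2 in Raji, and for such genes no share over all genes was computed. IL21R also had a region of H3K4me2 in its interior that was called in 2 of 3 treated and in no untreated libraries of both NALM6 and REH. For such regions no share was computed either. For H3K4me2 and H3K4me3, 17 of 54 combinations of gene, line and mark had a peak in all 6 libraries and could be tested. limma called 0 of the 17, with or without a trend, and 5 had an unadjusted p under 0.05. These were IL21R, IL2RG and, with a lower level, IL10RA of 5 members tested for H3K4me3 in Raji, IFNGR1 of 2 for H3K4me3 in REH, and IL2RG of 5 for H3K4me2 in REH. Of all genes tested for H3K4me2 it called 0.0226% in Raji, 0.266% in REH and 0% in NALM6. The H3K4me3 shares were 0.692% in REH and 0% in both other lines. Over bodies no member was called either, against 0.0207% of all genes in Raji and 0.169% in REH for H3K4me2 and 0.428% in REH for H3K4me3. Of all genes tested, 5.92% in Raji, 6.73% in REH and 0.923% in NALM6 (38 genes) had an unadjusted p under 0.05 for H3K4me2. For H3K4me3 the shares were 4.87% in Raji (482 genes), 8.71% in REH and 0.108% in NALM6 (5 genes). Over the 17 the median change was 0.05 on the log2 scale.

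**Figure D2:**
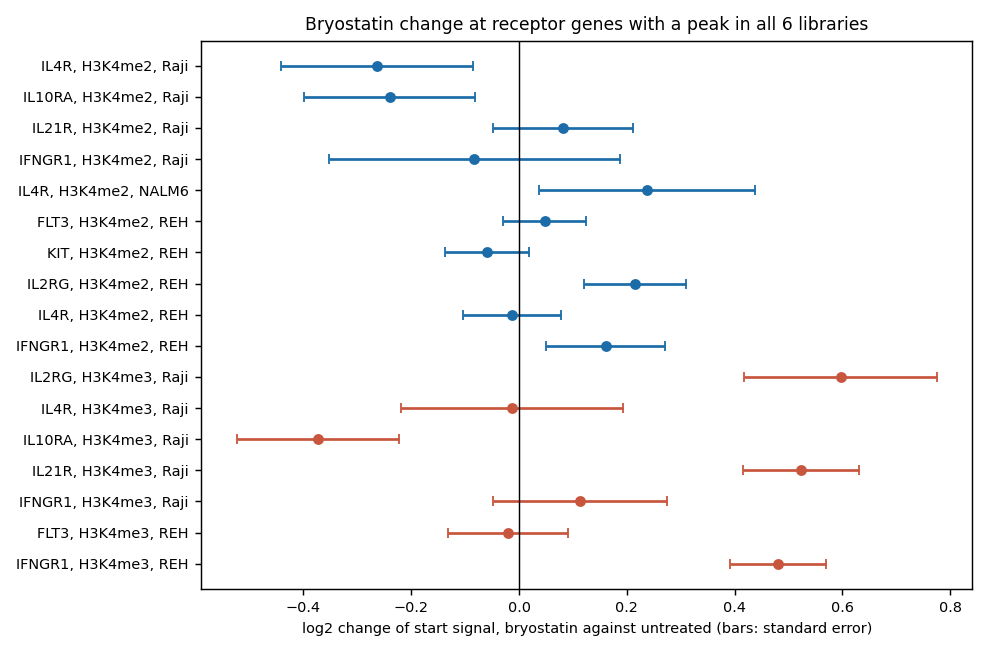
Change of the start signal with bryostatin on the log2 scale (horizontal axis) for each receptor gene, mark and line with a peak in all 6 libraries. Points are limma estimates from 3 treated and 3 untreated libraries and bars are standard errors, blue for H3K4me2 and red for H3K4me3. IL2RG and IL21R in Raji and IFNGR1 in REH lie furthest to the right, all for H3K4me3.

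IL21R in Raji had H3K4me3 at 1.42, 1.77 and 1.42 in the treated libraries, all above the untreated ones. The change was 0.52 on the log2 scale (SE 0.11, adjusted p = 0.409, limma). Same-numbered libraries deviated together here, and blocking on the number gave an adjusted p of 0.0516. Nearly all of the rise lay at the canonical start, where the level went from 0.874, 1.00 and 0.808 to 1.30, 1.55 and 1.29. The internal region had 0.154, 0.194 and 0.171 in the untreated and 0.115, 0.219 and 0.137 in the treated libraries. The mean signal per called base changed by 0.53 and the maximum by 0.50. H3K4me2 at IL21R in Raji went to 3.66, 3.90 and 4.01, a change of 0.08 (SE 0.13, adjusted p = 0.874, limma).

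In NALM6 and REH, IL21R had a region of H3K4me2 in its interior that was called in treated libraries only. In NALM6 a region of H3K4me2 from 23927 to 31366 bp after the canonical start, chr16:27426101-27433540, was called in none of the 3 untreated libraries and in treated replicates 2 and 3, at levels of 0.605 and 0.612. In REH a region from 27307 to 31946 bp, chr16:27429481-27434120, was called in none of the untreated libraries and in treated replicates 1 and 2, at 0.218 and 0.266. The levels of NALM6 replicate 2 and of REH were above the smallest peak of each untreated library, at 0.353, 0.359 and 0.260 in NALM6 and at 0.125, 0.202 and 0.204 in REH. The NALM6 replicate 3 level is the sum of separate peaks, from 23927 to 27106 bp and from 27647 to 31266 bp. Their total signals were 409164 and 383759, where the smallest peak of that library, 278469, is at a level of 0.215. On that scale neither alone reaches the smallest peaks of untreated replicates 1 and 2. The NALM6 region covers the RefSeq internal start whose sequence is shown above, and the REH region begins downstream of it. Both lie over exon 2. The treated libraries without the region were NALM6 replicate 1, which has the other scaling, and REH replicate 3, which had the fewest peaks of the REH H3K4me2 libraries, 11119, a smallest peak at 0.307, and no IL21R peak at all. Summed over both regions, IL21R was higher in treated NALM6 by 1.29 without replicate 1 of both groups (SE 0.08, adjusted p = 0.0138, limma), where 0.278% of all genes were called. That fit rests on replicates 2 and 3 of each group, and replicate 1 had no IL21R start peak, treated or untreated. Testing genes with a peak in at least 3 of 6 libraries instead gave 1.31 (SE 0.16, adjusted p = 0.507, limma), which was not called. In REH the library without a peak was a treated one, and a fit that leaves it out would drop the value that went the other way, so none is used here. With all 6 libraries the exact two-sided permutation p was 0.4 in both lines. The treated REH start levels were 0.610, 0.751 and 0 and those of NALM6 0, 0.975 and 0.966. The region over the canonical start alone was at 0.393 and 0.485 in the 2 treated REH libraries with a peak and at 0.369 and 0.354 in those of NALM6, where the untreated libraries with a peak had 0.391 and 0.389. For H3K4me2 a start peak in more treated than untreated libraries was found at 16.9% of all genes in NALM6 and at 2.35% in REH. In NALM6 it was found at 4 members, FLT3, IL7R, IL2RG and IFNGR1, while IL21R had 2 of 3 libraries in both groups. In REH it was found at no member, and IL21R, with 2 against 3, was the 1 member with fewer, as were 6.53% of all genes. No member had an H3K4me2 start peak in fewer treated libraries in Raji, where 0.374% of all genes did, or in NALM6, where 5.52% did. For interior regions called in 0 of 3 untreated and 2 of 3 treated libraries, no share over all regions was computed. Other members had H3K4me2 regions with that pattern too. These lay from 5977 to 8776 bp at IL2RG in NALM6, from 15037 to 17696 bp at IL10RA in Raji, and in KIT in Raji.

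**Figure D3:**
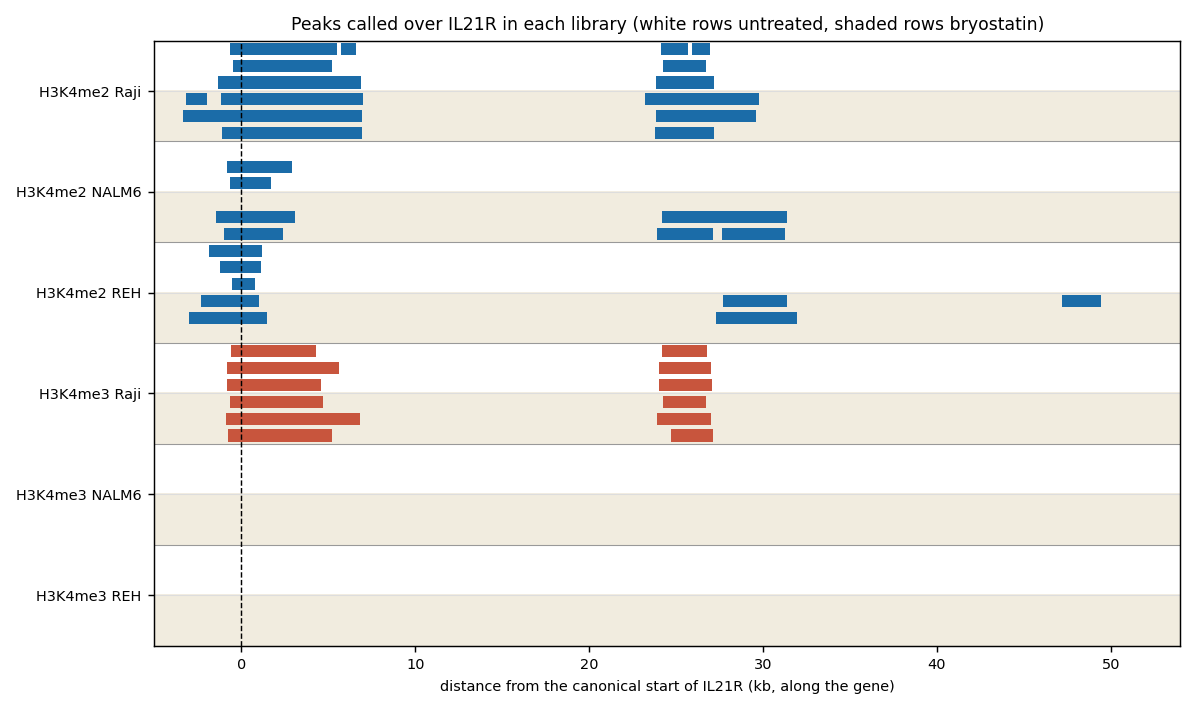
Peaks over IL21R by library, with distance from the canonical start in kb on the horizontal axis. Rows are libraries, grouped by mark and line, with 3 untreated rows (white) above 3 bryostatin rows (shaded), and bars are called peaks. For H3K4me2, internal peaks begin between 23227 and 24247 bp in all 6 Raji libraries. They end by 27176 bp except in treated replicates 1 and 2, where they end at 29776 and 29606 bp. In 2 of 3 treated and 0 of 3 untreated libraries of NALM6 and REH, peaks lie from 23927 to 31366 bp and from 27307 to 31946 bp. The REH peaks overlap no internal peak of untreated Raji.

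IL2RA encodes the chain that gives the IL-2 receptor its high affinity and is known as an activation marker. Its start had H3K4me2 in none of the untreated Raji libraries and in treated replicates 1 and 2, at 0.556 and 0.787, in a region from -503 to 6086 bp. The smallest H3K4me2 peaks of the untreated Raji libraries were at 0.0838, 0.285 and 0.153. Its H3K4me3 was 0.0131, 0 and 0 in the untreated and 0.0847, 0.212 and 0.133 in the treated Raji libraries, which did not overlap. The exact two-sided permutation p was 0.1, the smallest that 3 against 3 can give. In Raji, a start peak in more treated than untreated libraries was found at 10.9% of all genes for H3K4me2 and at 0.524% for H3K4me3. Among the 9 receptor genes it was found at 3, IL2RA, IL2RG and KIT, for H3K4me2 and at IL2RA for H3K4me3. At KIT it was a peak in treated replicate 2 only, from 68964 to 71773 bp, over exon 10 and an internal annotated start. Its total signal was 84980, where the smallest peak of that library was 82266. No Raji library had an H3K4me2 peak at the canonical start of KIT. The treated Raji libraries were deeper for H3K4me2, 15.6 to 18.8 M reads against 6.70 to 13.9 M. For H3K4me3 they held 13.5 to 27.3 M against 20.1 to 47.9 M. Over the body of IL2RA with flanks, Raji H3K4me2 was at 0.807, 0.546 and 1.01 untreated and 1.44, 1.74 and 0.940 treated, a change of 0.77 (SE 0.26, adjusted p = 0.811, limma). No H3K4me2 or H3K4me3 start peak of IL2RA was called in NALM6 or REH. For H3K4me3, IL7R, IL2RG, IL4R and IFNGR1 had a start peak in fewer treated NALM6 libraries, as did 18.1% of all genes, and treated replicate 3, with its smallest peak at 0.544, had none of them. No member had one in more treated libraries of NALM6 (2.37% of all genes) or REH (1.92%), or in fewer of Raji (3.59%) or REH (6.11%).

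**Figure D4:**
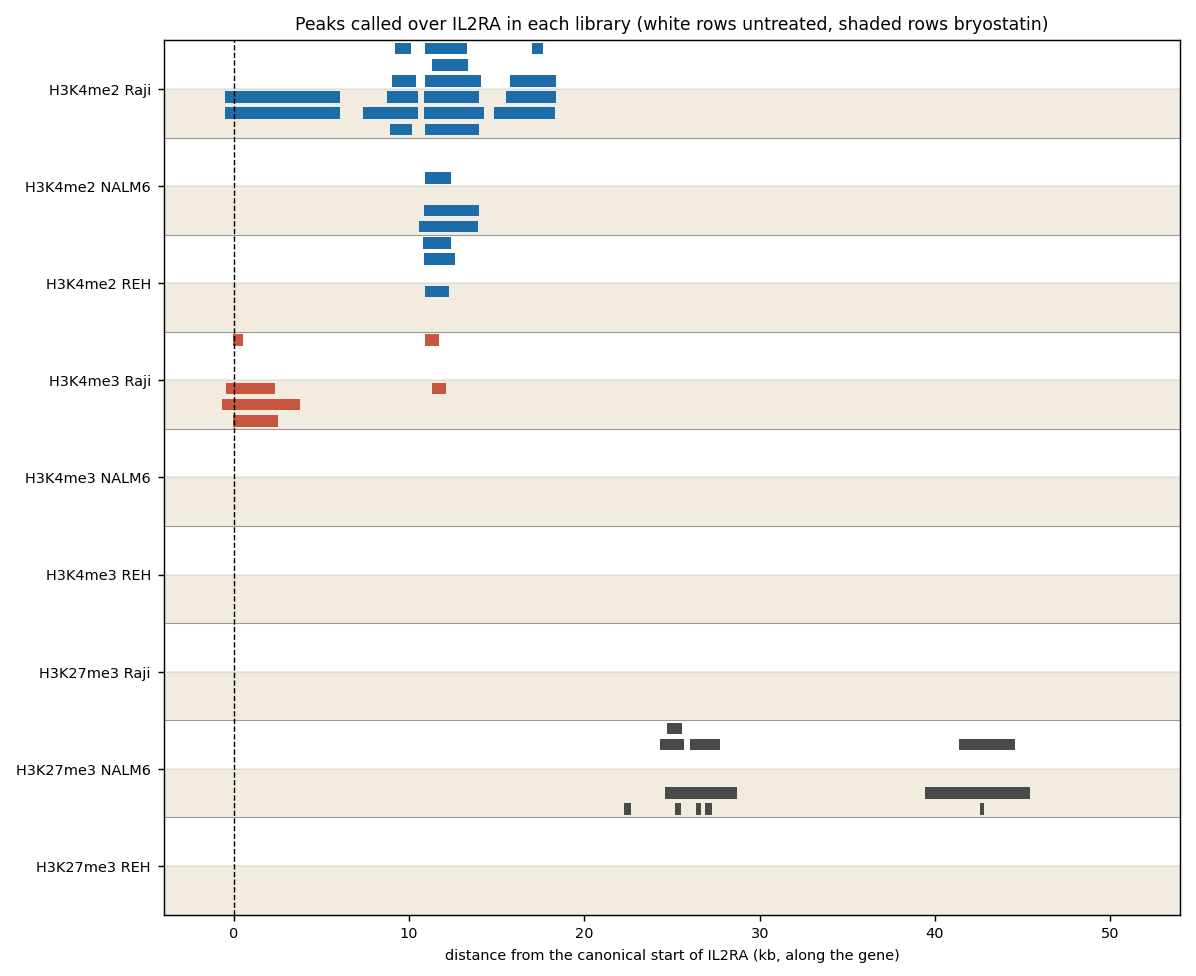
Peaks over IL2RA by library, with distance from the canonical start in kb on the horizontal axis. Rows are libraries, grouped by mark and line, with 3 untreated rows (white) above 3 bryostatin rows (shaded), and bars are called peaks. In Raji the start is covered by H3K4me3 in 3 treated and 1 untreated library, while the intron 1 region of H3K4me2 from 10857 to 14286 bp is present in all 6.

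IL2RG had higher start levels in treated Raji, at 0.755, 0.906 and 0.755 for H3K4me2 and 0.243, 0.351 and 0.254 for H3K4me3. Neither mark overlapped the untreated values given above. The H3K4me2 change, with 1 untreated library at 0, had an exact permutation p of 0.1, and the H3K4me3 change was 0.60 (SE 0.18, adjusted p = 0.881, limma), or 0.18 by maximum signal and 0.24 by mean signal per base. In REH, IL2RG H3K4me2 went to 0.750, 0.944 and 0.860, a change of 0.22 (SE 0.09, adjusted p = 0.736, limma) that also did not overlap. Treated and untreated groups did not overlap at 10.1% (Raji) and 12.8% (REH) of all genes tested for H3K4me2, and at 12.1% and 15.8% for H3K4me3. Of the members tested they did not overlap at 1 of 4 (IL21R) and 1 of 5 (IL2RG) for H3K4me2, and at 2 of 5 (IL2RG and IL21R) and 1 of 2 (IFNGR1) for H3K4me3. In NALM6 the only member tested, IL4R, had H3K4me2 at 0.764, 0.642 and 0.679, just above the untreated levels (change 0.24, SE 0.20, adjusted p = 0.999, limma, or -0.03 by maximum and -0.30 by mean signal per base), where 9.37% of all genes did not overlap.

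IFNGR1 in REH came nearest to the threshold. Its H3K4me3 went to 0.719, 0.587 and 0.649 in the treated libraries, all above the untreated ones, a change of 0.48 (SE 0.09, adjusted p = 0.0564, limma). Counting the canonical start only, a setting chosen after seeing the data, gave an adjusted p of 0.0397, and leaving out single libraries gave 0.0579 to 0.279. The called length went from 2530, 2170 and 1340 bp to 3780, 3310 and 3720 bp, while the maximum changed by 0.07 and the mean signal per called base by -0.34. In Raji the H3K4me3 of IFNGR1 changed by 0.11 (SE 0.16). The difference between the changes in Raji and REH was -0.37 (SE 0.19, adjusted p = 0.999, limma interaction). A difference in response between lines could be tested only for IL4R and IFNGR1, in 5 combinations of mark and pair of lines, and limma called none of the 5.

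The other members changed little or went lower without separation. IL10RA in Raji had H3K4me3 at 0.269, 0.398 and 0.322 in the treated libraries, a change of -0.37 (SE 0.15, adjusted p = 0.941, limma), and the untreated and treated levels overlapped. Each treated library was below the untreated one of the same number, and blocking on the number, which pairs these libraries, gave an SE of 0.09 and an adjusted p of 0.258. Its H3K4me2 went to 1.44, 1.42 and 1.68 (change -0.24, SE 0.16, adjusted p = 0.733, limma). FLT3 in REH had H3K4me2 at 0.810, 0.853 and 0.826 and H3K4me3 at 0.876, 0.739 and 0.712, changes of 0.05 (SE 0.08) and -0.02 (SE 0.11). KIT in REH had H3K4me2 at 1.09, 1.06 and 1.09, a change of -0.06 (SE 0.08). In Raji, KIT had 2 intron 1 regions of H3K4me2, from 25454 to 27323 bp and from 29334 to 31443 bp, in treated replicates 1 and 2 and in no untreated library, at levels of 0.0761 to 0.145. These levels are below the smallest peaks of untreated replicates 2 and 3, and those of the first region are also below that of replicate 1. The second of these places was also called in 2 untreated and 2 treated REH libraries. IL7R start peaks came and went between replicates in every line, with no group called in 3 of 3.

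H3K27me3 was called at few of these starts. KIT in REH, with 0.847, 0.827 and 0.795 in the treated libraries, was the only member with the mark in all 6 libraries of a line, and its change was -0.10 (SE 0.35, adjusted p = 0.99, limma). IL4R in REH had it in 3 untreated libraries at 0.252, 0.147 and 0.459 and in 2 treated ones at 0.204 and 0.226, over a start that carried H3K4me2 in all 6. An H3K27me3 start peak in 3 of 3 untreated REH libraries was found at 10% of all genes, and in Raji and NALM6, where no member had it, at 1.39% and 1.97%. Groups did not overlap at 11.3% of the genes tested in REH, and limma called 0% of them. Raji untreated replicate 2 had H3K27me3 peaks at FLT3, IL4R, IL10RA, IL21R and IFNGR1. Without that library only FLT3 had one in Raji, in 1 untreated and 1 treated library. With it, 5 of the 9 members had a peak in fewer treated than untreated Raji libraries, as did 53.7% of all genes. In NALM6, FLT3 and IL2RA had a start peak in more treated libraries, as did 17.2% of all genes, and in REH, IL4R had one in fewer, as did 3.05%. Of all genes 3.48% in Raji and 4.35% in REH had one in more treated libraries and 1.74% in NALM6 in fewer, with no member among them. The NALM6 peak of FLT3, of 160 bp, was called in treated replicate 3 only, a library with 78673 peaks. That of IL2RA lay from 39447 to 45406 bp, over exon 4 and an internal annotated start. No NALM6 library had an H3K27me3 peak at the canonical start of IL2RA. IL2RA in NALM6 also had H3K27me3 in intron 1, from 24297 to 28736 bp after its start, in 2 untreated and 2 treated libraries. IL7R had no H3K27me3 peak in any library.

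The partners of these receptors were read in the same fits. With bryostatin, none of the starts that could be tested was called among the other receptor chains, the JAK and STAT genes and the ligands, for H3K4me2 or H3K4me3. Of 11 other receptor chains, 5 to 9 were tested in Raji and REH and 2 in NALM6. Of 11 JAK and STAT genes, 4 to 9 were tested, and of 8 ligands 0 to 2, with none in NALM6. Of 7 feedback inhibitors, 5 were tested for H3K4me3 in REH and 2 of them were called higher, where 0.692% of all genes were called. These were SH2B3, an adaptor that restrains JAK2 and KIT signalling, with a change of 0.51 (SE 0.06, adjusted p = 0.00442, limma), and PTPN6, the phosphatase SHP-1, with 0.38 (SE 0.06, adjusted p = 0.0372, limma). The 57 genes called in this fit became 0 to 70 over the alternative settings, so neither call held in every setting. The values of SH2B3 and PTPN6 in those settings were not read out. The medians of the 5 feedback inhibitors tested and of all genes were 0.06 and -0.004. Between untreated Raji and REH, where 47.2% of all genes tested were called for H3K4me3 and 39.1% for H3K4me2, H3K4me3 was higher in Raji at 3 of 4 feedback inhibitors tested, SH2B3 by 0.25, PTPN6 by 0.80 and SOCS1 by 0.80 (SE 0.07, adjusted p = 5.2e-05, limma). It was lower at 3 of 7 JAK and STAT genes tested, JAK2 by -0.81 (SE 0.09), STAT6 by -0.57 (SE 0.11) and STAT3 by -0.40 (SE 0.11). Of 5 other receptor chains tested, the interferon receptor gene IFNAR2 was higher in Raji by 0.98 and IL6ST, the gp130 chain, lower by -0.53. For H3K4me2, JAK1 (0.38), STAT3 (0.66), PTPN2 (0.89) and PTPN6 (0.49) were called higher in Raji than in REH, and STAT6 (-0.54) and SH2B3 (-0.67) lower, of 8 JAK and STAT genes and 4 feedback inhibitors tested. STAT3 and SH2B3 thus had opposite directions in the 2 marks. STAT5B, a signal carrier of the gamma chain receptors, had more H3K4me2 in NALM6 than in REH by 1.34 (SE 0.17, adjusted p = 0.00534, limma) and than in Raji, with Raji against NALM6 at -1.54 (SE 0.23, adjusted p = 0.0049, limma). Of 6 JAK and STAT genes and 6 feedback inhibitors tested for H3K4me2 between NALM6 and REH, STAT3 (0.66) and CISH (1.32) were also called higher in NALM6 and SOCS2 (-0.77) lower, where 8.19% of all genes were called. SOCS2, like CISH a STAT5-induced inhibitor, went the other way for H3K4me3, where NALM6 exceeded REH by 2.19 (SE 0.20, adjusted p = 0.00289, limma) and 6.15% of all genes were called. For H3K4me3 Raji was below NALM6 at 3 of 4 JAK and STAT genes tested, JAK2 (-0.91), STAT3 (-0.83) and STAT5B (-1.49), where 17.4% of all genes were called. Of the ligands, IL10 and FLT3LG carried H3K4me2 and H3K4me3 in 3 of 3 untreated Raji libraries, and no ligand carried H3K4me3 in 3 of 3 untreated libraries of NALM6 or REH.

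Over the 36 H3K4me2 and H3K4me3 libraries, the genes with the most similar start levels were named by the smallest root mean square difference of log2(1 + level). For IL10RA they were SNX10, at 0.0902, and the ligand gene IL10, at 0.101, each with a peak in 12 libraries. They were FGR, at 0.242, and CD27, at 0.287, for IL21R, WNT4 and RHBDL3 for KIT, GRIP1 and RILPL1 for FLT3, and SPARCL1 and GPR183 for IL2RA. For IL4R they were RAPGEF5 and SLC2A6, for IFNGR1 SESN3 and AAGAB, for IL7R HPF1 and DDX10, and for IL2RG, after the gene that shares its start region, TRIM22, at 0.148. These libraries share line and antibody, so likeness here is a description.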

How the data were processed

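The input was 54 SEACR peak lists of Cut&Tag libraries, 3 per line, mark and treatment. Per the methods and the processing notes, the authors trimmed reads with Trim Galore, aligned them to hg38 with Bowtie2, normalized coverage by RPKM and called peaks library by library. Each deposited peak carries signal values, the sum and maximum of that coverage. In 48 libraries they are in RPKM in bins of 10 bp, whose steps gave the depth, while NALM6 replicate 1 has another scaling that is not stated. IgG control libraries were not used here.

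Peaks within 1 kb of any GENCODE 44 start, and over gene bodies with 3 kb flanks, were summed per gene. Log2 values were centred on the median of genes with a peak in all 6 libraries and compared with limma 3.58.1 in R 4.3.3 (eBayes with trend, Benjamini-Hochberg adjustment over all genes tested, threshold 0.05). Members without a peak in some library went through an exact permutation test (two-sided, scipy 1.17.1), whose smallest p is 0.1. The fits were tested on simulated data. Sensitivity to the signal measure, centring, peak threshold, overlap, windows, genes tested, eBayes trend, pairing and single libraries was computed. Deviations of libraries with the same replicate number correlated above 0.1 in each pair for Raji H3K4me3 and for all marks in NALM6, and not for the other start signals.

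The receptor genes, pathway lists, marker lists and tests were chosen with earlier results of these data known. All 9 members were named. Pathway genes were named when past the threshold for the start signal, and for each member the 2 genes with the most similar start levels were. Some marker and promoter items are not reported here.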

Additional observations from a re-analysis of the deposited data

How the results depend on the processing

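Counts of receptor genes called were recomputed under each alternative, in 673 settings for all comparisons together, and 605 of these stayed within 1.5 times the main count. Of 483 alternatives for single log2 changes, 10 lost a call, 5 gained one and 2 turned the direction of a called change. The other 466 kept their side of the threshold, and in 44 of these a change that was called in neither setting had the other sign, as for IFNGR1 H3K4me3 in REH with bryostatin by mean signal per base (-0.34). The 2 called ones that turned were IL4R H3K4me2 by mean signal per base, at -0.18 for Raji against REH and -0.039 for Raji against NALM6.

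With bryostatin the main count was 0 in every line. It became 1 for H3K4me2 starts in NALM6 without replicate 1 of both groups, 1 for H3K4me2 starts and bodies in REH with genes in at least 3 of 6 libraries, and 1 for H3K4me3 starts in REH with the canonical start only, a setting chosen after seeing the data. Leaving out 1 library gave 0 to 1 for H3K4me2 starts and bodies in REH, where the 1 (IL21R) came without treated replicate 3, the library in which IL21R had no peak, so that it is no test of the gene. For the lines, the main H3K4me2 count for Raji against REH, 2 for starts and bodies, became 0 with the upper 0.5 of peaks and 4 with genes in at least 3 of 6 libraries. For Raji against NALM6 it was 1 for starts and bodies and became 0 by maximum signal, mean signal per base, no centring or the upper 0.5 of peaks, and 2 with genes in at least 3 libraries or without NALM6 replicate 1. Leaving out 1 library gave 1 to 2. For NALM6 against REH it was 0 and became 1 in the last 2 settings, with 0 to 1 when leaving out 1 library. The main H3K4me3 count for Raji against REH, 1, became 0 by maximum, mean signal per base, no centring or the upper 0.5 of peaks and 4 with genes in at least 3 libraries, with 1 to 2 for bodies when leaving out 1 library. For Raji against NALM6, 1, it became 0 in the same settings and with the replicate block, 2 for starts and 3 for bodies with genes in at least 3 libraries, and 3 without NALM6 replicate 1, with 1 to 3 when leaving out 1 library. The block changed no other count. For H3K27me3 in NALM6 against REH it went from 0 to 1 for starts and bodies with genes in at least 3 libraries. The cause was not tested.

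Receptor genes with a start peak in 3 of 3 untreated libraries went, with the upper 0.5 of peaks, to 0 for H3K4me2 in NALM6, and for H3K4me3 to 3 in Raji, 0 in NALM6 and 1 in REH, and with the same number of peaks per library to the same 3, 0 and 1. For H3K27me3 in REH these settings gave 1 and 0.

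Over all genes, bryostatin calls ranged over the alternatives from 0 to 6 for Raji H3K4me2, with up to 74 when leaving out 1 library, from 5 to 34 for REH H3K4me2, from 0 to 27 for Raji H3K4me3 and from 0 to 70 for REH H3K4me3. Without centring, the median bryostatin change of all genes in Raji was 0.26 (H3K4me2) and 0.25 (H3K4me3). A peak missing in a shallow library, or one with a high smallest peak, limits every level of 0.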
